A study of Homo sapiens with 6 samples.

Results

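The genes described here are a set of p53-linked DNA damage repair genes: XPC, DDB1, DDB2, POLH, POLK, GADD45A, GADD45B, GADD45G, ERCC5 and AEN. Of these 10, 9 had a probe set whose platform annotation named that gene alone, out of 18404 genes with such a probe set. Each of the 9 had 1 such probe set, so no choice between probe sets was needed. ERCC5 was covered only by a probe set that also names the readthrough gene BIVM-ERCC5, and it entered none of the counts below. RNA came from H226, a human lung squamous carcinoma line that here carried an shRNA against p63 under doxycycline control, and was measured on 6 HuGene 1.0 ST arrays of Affymetrix, with 2 arrays for every group. The Nutlin-3 cells had the shRNA off and received 10 µM Nutlin-3 for 12 h. The shp63 ON cells were kept in 1 µg/mL doxycycline for 48 h to switch the shRNA on. The control cells had the shRNA off and grew untreated. All cells were H226 plated in medium with 10% fetal calf serum 24 h before treatment, and p63 stands for the transcription factor of basal and squamous epithelia that belongs to the p53 family.

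Nutlin-3 is a small molecule that keeps MDM2, a ubiquitin ligase, from binding p53, and so lets p53 accumulate without DNA damage. Active p53 binds DNA and raises transcription of genes for cell cycle arrest, cell death and repair. Nucleotide excision repair removes bulky lesions such as ultraviolet photoproducts: XPC and the DDB1-DDB2 complex find the lesion, and ERCC5 (XPG) makes the cut on its 3′ side. POLH and POLK encode translesion polymerases, which copy past lesions that stall the replicative enzymes. The GADD45 proteins are small stress proteins that bind partners such as the kinase MAP3K4, and AEN is a nuclease with a role in p53-dependent cell death rather than in lesion removal.

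RefSeq promoter windows (GRCh38.p14, from 250 bases before to 50 after the annotated start site) were found for 9 of the 10 listed genes. GADD45A had no window and was not searched, so the 9 windows are not those of the 9 measured genes. The windows of XPC, DDB2, POLH and AEN are shown because these 4 genes rose with Nutlin-3, as did GADD45A. The window of GADD45B is shown because this gene rose in shp63 ON. Capitals mark matches on either strand to the p53 decamer motif, to the CCAAT box, to the Sp1 motif GGGCGG or to the TATA box (TATAAA), and where matches overlap the capitals run together.
XPC (chr3:14178552-14178851, - strand): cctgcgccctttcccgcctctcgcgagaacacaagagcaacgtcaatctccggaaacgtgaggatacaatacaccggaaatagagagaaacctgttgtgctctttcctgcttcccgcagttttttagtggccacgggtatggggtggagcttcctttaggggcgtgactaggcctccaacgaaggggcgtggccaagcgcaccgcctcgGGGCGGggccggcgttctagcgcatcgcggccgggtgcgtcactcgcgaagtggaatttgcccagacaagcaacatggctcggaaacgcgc
DDB2 (chr11:47214204-47214503, + strand): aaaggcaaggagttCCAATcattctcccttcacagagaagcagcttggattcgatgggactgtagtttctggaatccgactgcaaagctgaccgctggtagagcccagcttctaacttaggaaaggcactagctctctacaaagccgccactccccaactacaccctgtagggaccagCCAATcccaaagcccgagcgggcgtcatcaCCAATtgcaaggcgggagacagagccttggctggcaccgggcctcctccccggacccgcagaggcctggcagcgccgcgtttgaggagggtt
POLH (chr6:43575935-43576234, + strand): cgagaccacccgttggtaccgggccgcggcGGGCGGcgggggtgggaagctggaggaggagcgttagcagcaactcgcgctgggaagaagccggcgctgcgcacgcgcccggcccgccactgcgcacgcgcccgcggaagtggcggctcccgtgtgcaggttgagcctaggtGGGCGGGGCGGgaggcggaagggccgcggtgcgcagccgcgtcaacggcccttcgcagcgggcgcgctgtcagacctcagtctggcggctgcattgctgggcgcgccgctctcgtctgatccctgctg
AEN (chr15:88621090-88621389, + strand): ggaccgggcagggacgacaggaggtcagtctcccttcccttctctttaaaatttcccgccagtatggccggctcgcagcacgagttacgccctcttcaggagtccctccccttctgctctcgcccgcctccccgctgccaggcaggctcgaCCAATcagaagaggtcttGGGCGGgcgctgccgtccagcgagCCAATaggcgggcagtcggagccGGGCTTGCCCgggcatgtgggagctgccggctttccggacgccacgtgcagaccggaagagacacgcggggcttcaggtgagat
GADD45B (chr19:2475877-2476176, + strand): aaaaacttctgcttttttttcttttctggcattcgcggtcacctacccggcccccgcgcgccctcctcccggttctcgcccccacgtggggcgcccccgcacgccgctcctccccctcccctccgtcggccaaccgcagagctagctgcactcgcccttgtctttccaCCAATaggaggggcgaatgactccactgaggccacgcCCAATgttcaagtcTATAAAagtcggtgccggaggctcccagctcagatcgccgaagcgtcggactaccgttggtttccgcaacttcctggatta
Among the 9 windows, which leave out GADD45A, the p53 decamer matched only that of AEN, at position −34 from the start site, as GGGCTTGCCC. Of 14230 windows of tested genes, 5.95% held such a decamer. A pair of decamers at most 13 bases apart was in 0 of the 9 windows and in 0.0211% of all. CCAAT was in 4 of the 9 (DDB2, GADD45B, GADD45G and AEN), against 36.3% of all windows, and GGGCGG in 6 of the 9 (XPC, DDB1, POLH, POLK, ERCC5 and AEN), against 60.0%. TATAAA was in the GADD45B window alone, against 9.01% of all, and TGANTCA, the AP-1 motif, was in 0 of the 9, against 5.58%. These matches describe the letters in the windows.

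The array values were log2 intensities. Replicate arrays correlated across genes at 0.997 to 0.998, and arrays of different groups at 0.975 to 0.989. MDM2 and CDKN1A, 2 genes that p53 is known to activate, served as readouts of p53. MDM2 had 12.47 and 12.93 on the Nutlin-3 arrays, 10.92 and 11.04 on the shp63 ON arrays, and 11.44 and 11.37 on the control arrays. CDKN1A had 11.85 and 11.84, 10.38 and 10.39, and 10.21 and 10.30 in the same group order. Both were higher on each Nutlin-3 array than on any other array. In shp63 ON against control the 2 genes differed. MDM2 was lower (log2 fold change −0.43, limma adjusted p = 0.0455), and CDKN1A did not pass (0.13, limma adjusted p = 0.15). The labelled epithelial identity was checked on markers: all 5 general epithelial genes stood at 9.99 or above on each array, as did the basal keratins KRT5 (11.87 to 12.39) and KRT14 (10.07 to 10.49). The squamous markers PKP1 and SOX2 lay at 6.69 to 7.26 and at 5.69 to 5.79, and the mesothelial gene MSLN at 9.76 to 10.09. MSLN stood apart from the other measured mesothelial genes. CALB2 reached at most 6.35 on any array, LRRN4 6.23 and WT1 6.44. The summed log2 level of 6 basal squamous genes was 55.54 to 55.84 with Nutlin-3, 51.92 to 52.10 in shp63 ON and 53.14 to 53.45 in control. Of these 6, DSG3 (11.12 and 11.10 with Nutlin-3, 8.33 and 8.37 in shp63 ON, 9.03 and 9.12 in control) and DSC3 (9.75 and 9.62, 8.33 and 8.40, 8.89 and 8.97) differed most. PKP1 went the other way, with log2 fold changes against control of −0.12 with Nutlin-3 and 0.36 in shp63 ON. In that order KRT14 stood at −0.26 and 0.03, KRT5 at 0.06 and −0.37, and SOX2 at −0.07 and −0.02. The sum of 5 leukocyte genes was 26.21 to 26.39 with Nutlin-3, 27.30 to 27.53 in shp63 ON and 26.34 to 26.88 in control. The sum of 5 endothelial genes was 28.17 to 28.32, 29.64 to 30.22 and 28.75 to 29.30 in the same order. The genes of these lists did not move as one in shp63 ON against control. Log2 fold changes there were 0.62 for CD14, 0.26 for CD3E, 0.04 for ITGAM, 0.00 for MS4A1 and −0.12 for PTPRC. For the endothelial genes they were 0.57 for CDH5, 0.31 for VWF, 0.19 for TEK, −0.05 for PECAM1 and −0.12 for KDR. The sums of the mesothelial (28.86 to 29.11 against 27.85 to 28.28), fibroblast (34.65 to 34.90 against 34.16 to 34.36) and general epithelial genes (60.13 to 60.35 against 59.37 to 59.38) were also higher in shp63 ON than in control. The part of these shifts in the results was not tested. The p53 and p63 genes themselves were not analysed here, and the extent of the knockdown is therefore unknown. Nothing in the labels marks the replicates as separate cultures, so all p-values may reflect technical spread alone. An exact permutation test of 2 arrays against 2 gives a two-sided p of 0.333 at the smallest, and limma's model, fitted across all genes, was used instead.

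With Nutlin-3, 5 of the 9 measured genes rose and none of the other 4 passed, against 18.5% of all genes that passed in either direction (limma, Benjamini-Hochberg adjusted p under 0.05 over 18404 genes). At an unadjusted p under 0.05, 7 were higher and 1 lower. An unmoderated one-way analysis of variance, the type of test that the design text names, called 4 higher and 0 lower when adjusted likewise. The genes that rose were POLH, XPC, AEN, DDB2 and GADD45A, by 1.38-fold to 2.55-fold, and the median log2 fold change of the 9 was 0.47, against −0.002 over all genes. Over all genes, 9.64% rose and 8.89% fell with Nutlin-3. With the shRNA on, 1 of the 9 rose, GADD45B, and 4 fell, POLH, AEN, XPC and DDB2, while over all genes 19.7% rose and 16.5% fell. That made 5 of 9 past the threshold, against 36.2% of all genes. Their median in shp63 ON was −0.17 on the log2 scale, against 0.042 over all genes. The counts of the 2 comparisons share the control arrays. Set directly against Nutlin-3, shp63 ON had 6 of the 9 lower and 2 higher, against 24% and 27.5% of all genes (51.5% in either direction), with a median of −0.59 against 0.026. By the arrays alone, both Nutlin-3 arrays lay above both control arrays for 7 of the 9 and below them for 2, against 30.2% and 30.3% of all genes. Both shp63 ON arrays lay above both control arrays for 1 and below them for 6, against 41.3% and 30.4%. They lay above both Nutlin-3 arrays for 2 and below them for 7, against 41.1% and 35.7%. With arrays centred on their medians, the genes called with Nutlin-3 were 2175 higher and 1236 lower in place of 1774 and 1636. With cyclic loess, those called in shp63 ON against control were 2456 higher and 3003 lower in place of 3634 and 3036.

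**Figure D1:**
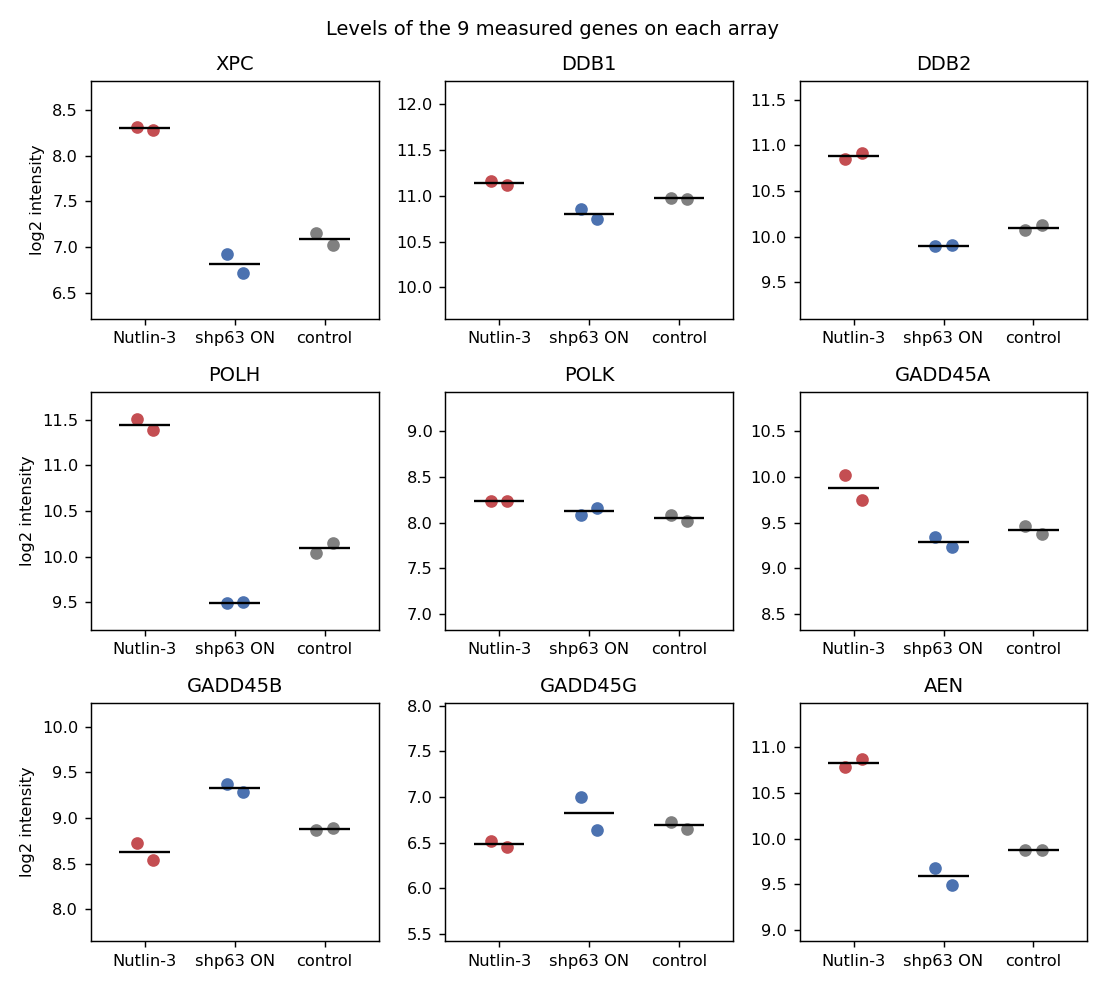
Log2 intensity (y axis) of each of the 9 measured genes on the 2 Nutlin-3, 2 shp63 ON and 2 control arrays. Points are arrays and bars are group means, and every panel spans the same number of log2 units. XPC, DDB1, DDB2, POLH, POLK, GADD45A and AEN stand highest with Nutlin-3, though DDB1 and POLK did not pass against control. GADD45B stands highest in shp63 ON.

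Of the 3 lesion recognition genes of nucleotide excision repair, XPC and DDB2 rose with Nutlin-3 and DDB1 did not pass. XPC, the sensor that starts repair across the genome, had 8.32 and 8.29 on the Nutlin-3 arrays, 6.92 and 6.72 on the shp63 ON arrays and 7.15 and 7.03 on the control arrays. The 3 groups did not overlap, with Nutlin-3 on top and shp63 ON at the bottom. XPC rose 2.32-fold with Nutlin-3 (log2 fold change 1.21, SE 0.09, limma adjusted p = 9.49e-05, n = 2 each) and kept this call in all 16 alternative settings (adjusted p up to 0.0319). Its log2 fold change lay at percentile 99.5 of all genes. In shp63 ON it fell by 0.27 on the log2 scale (SE 0.09, limma adjusted p = 0.0428). That call was near the threshold: it was lost without shp63 ON replicate 2 (limma adjusted p = 0.205), control replicate 1 (0.204), control replicate 2 (0.0762) or either Nutlin-3 array (0.0537 each). Its log2 fold change without shp63 ON replicate 2 was −0.17. Without either Nutlin-3 array it stayed at −0.27, as those fits change only the estimate of the spread.

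DDB2, the subunit that binds photolesions and the gene of xeroderma pigmentosum group E, had 10.86 and 10.91 with Nutlin-3, 9.89 and 9.91 in shp63 ON and 10.08 and 10.12 in control. It also separated into 3 levels in the same order as XPC. DDB2 rose 1.72-fold with Nutlin-3 (log2 fold change 0.78, SE 0.06, limma adjusted p = 0.000168). In shp63 ON it fell by 0.20 on the log2 scale (SE 0.06, limma adjusted p = 0.0412). This small fall did not pass after quantile normalization (limma adjusted p = 0.161, log2 fold change −0.13), after cyclic loess (0.153), with the replicate number as a block (0.0543), or without any 1 shp63 ON array (0.136 and 0.107) or control array (0.101 and 0.185).

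DDB1, the partner that ties DDB2 to the CUL4 ubiquitin ligase, moved less. It had 11.16 and 11.12 with Nutlin-3, 10.86 and 10.75 in shp63 ON and 10.98 and 10.96 in control. The groups held the same order as for DDB2 with no overlap, but neither difference from control passed. The log2 fold change was 0.17 with Nutlin-3 (95% interval 0.01 to 0.32, limma adjusted p = 0.126) and −0.17 in shp63 ON (−0.32 to −0.01, limma adjusted p = 0.0878). Set directly against Nutlin-3, DDB1 was lower in shp63 ON (log2 fold change −0.33, SE 0.07, limma adjusted p = 0.00449). A trend in the variance model brought both differences from control past the threshold (limma adjusted p = 0.0303 and 0.0198).

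Of the 2 translesion polymerases, POLH changed in both comparisons with control and POLK passed in neither. POLH, polymerase eta, which copies past ultraviolet cyclobutane dimers and is lost in the variant form of xeroderma pigmentosum, had 11.51 and 11.38 with Nutlin-3, 9.49 and 9.50 in shp63 ON and 10.04 and 10.15 in control. Its 3 groups lay farther apart than their replicates did. POLH rose most of the 9 with Nutlin-3, 2.55-fold (log2 fold change 1.35, SE 0.07, limma adjusted p = 2.88e-05), at percentile 99.7 of all genes. It also fell most of the 9 in shp63 ON, 1.51-fold (log2 fold change −0.60, SE 0.07, limma adjusted p = 0.00107), at percentile 4.49. Both calls passed in all 16 alternatives (adjusted p up to 0.021 and up to 0.0337). Between shp63 ON and Nutlin-3 the difference was 3.86-fold (log2 fold change −1.95, SE 0.07, limma adjusted p = 4.94e-06).

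POLK, polymerase kappa, a bypass enzyme for bulky adducts on guanine, had 8.24 and 8.23 with Nutlin-3, 8.09 and 8.16 in shp63 ON and 8.09 and 8.02 in control. The Nutlin-3 arrays lay above the control arrays by a small margin, and shp63 ON overlapped control. The log2 fold change was 0.18 with Nutlin-3 (95% interval 0.03 to 0.33, limma adjusted p = 0.0922) and 0.07 in shp63 ON (−0.08 to 0.22, limma adjusted p = 0.425). It was the only one of the 9 that passed in none of the 3 comparisons, with −0.11 between shp63 ON and Nutlin-3 (−0.26 to 0.04, limma adjusted p = 0.183).

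**Figure D2:**
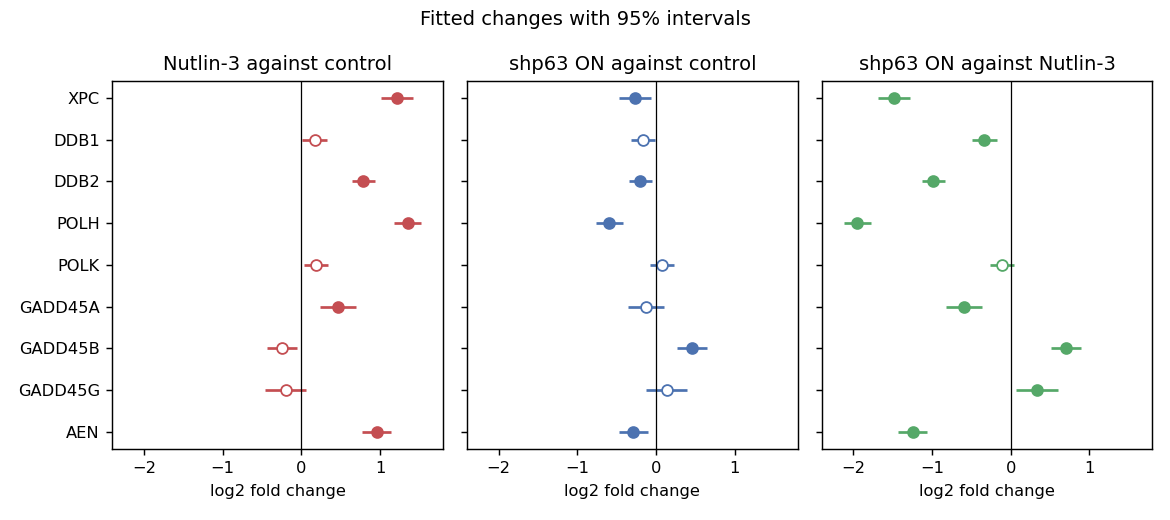
Log2 fold change (x axis) of each gene in the 3 comparisons, with 95% intervals from limma. Filled points passed an adjusted p of 0.05 and open points did not. POLH, XPC, AEN and DDB2 lie right of 0 with Nutlin-3 and left of 0 in shp63 ON, and GADD45B lies right of 0 in shp63 ON.

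Among the GADD45 genes, GADD45A rose with Nutlin-3, GADD45B rose in shp63 ON and GADD45G passed in neither comparison with control. GADD45A, a gene with a p53 binding site in an intron, had 10.02 and 9.75 with Nutlin-3, 9.35 and 9.24 in shp63 ON and 9.46 and 9.37 in control. Its Nutlin-3 arrays were above all others, though they differed from each other more than any other pair of replicates of this gene. GADD45A rose 1.38-fold with Nutlin-3 (log2 fold change 0.47, SE 0.10, limma adjusted p = 0.0164). Without Nutlin-3 replicate 1 the log2 fold change was 0.33 and did not pass (limma adjusted p = 0.0559), nor did it pass without control replicate 1 (0.069) or control replicate 2 (0.0983). In shp63 ON it stood at −0.12 (95% interval −0.35 to 0.11, limma adjusted p = 0.361), and it was lower there than with Nutlin-3 (log2 fold change −0.59, SE 0.10, limma adjusted p = 0.00197).

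GADD45B, which is known to respond to NF-kB and TGF-beta signals, had its highest values in shp63 ON. It had 8.73 and 8.53 with Nutlin-3, 9.37 and 9.29 in shp63 ON and 8.87 and 8.89 in control. Here shp63 ON was on top and Nutlin-3 at the bottom, with no overlap. GADD45B rose 1.37-fold in shp63 ON (log2 fold change 0.45, SE 0.08, limma adjusted p = 0.00487), at percentile 95.6 of all genes. With Nutlin-3 the log2 fold change was −0.25 (95% interval −0.43 to −0.06) and did not pass (limma adjusted p = 0.0735). That difference passed after quantile normalization (limma adjusted p = 0.0331), after cyclic loess (0.0304), with a variance trend (0.0308) and without Nutlin-3 replicate 1 (0.0379, log2 fold change −0.34). Without Nutlin-3 replicate 2 it was −0.15 (0.275). Between shp63 ON and Nutlin-3, GADD45B was 1.62-fold higher (log2 fold change 0.70, SE 0.08, limma adjusted p = 0.000384).

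GADD45G, the third family member, had 6.52 and 6.45 with Nutlin-3, 7.00 and 6.64 in shp63 ON and 6.72 and 6.65 in control. The shp63 ON arrays lay on both sides of the control arrays, and the Nutlin-3 arrays were below all others. The log2 fold change was −0.20 with Nutlin-3 (95% interval −0.47 to 0.06, limma adjusted p = 0.261) and 0.13 in shp63 ON (−0.13 to 0.40, limma adjusted p = 0.39). Its difference from control in shp63 ON followed 1 array, at −0.05 without shp63 ON replicate 1 (limma adjusted p = 0.724) and 0.31 without shp63 ON replicate 2 (0.0392). It was called higher in shp63 ON than with Nutlin-3 (log2 fold change 0.34, SE 0.11, limma adjusted p = 0.0388). Of 16 alternatives, 10 ended that call, among them quantile normalization (0.248, log2 fold change 0.18), cyclic loess (0.345, log2 fold change 0.14), leaving out shp63 ON replicate 1 (0.182, log2 fold change 0.16), either Nutlin-3 array (0.0764 and 0.136) or either control array (0.0613 each).

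AEN, an exonuclease that p53 induces, had 10.79 and 10.87 with Nutlin-3, 9.68 and 9.49 in shp63 ON and 9.87 and 9.88 in control. Its groups separated in the order seen for XPC, DDB2 and POLH. AEN rose 1.94-fold with Nutlin-3 (log2 fold change 0.95, SE 0.08, limma adjusted p = 0.000202), at percentile 99.2 of all genes. In shp63 ON it fell by 0.29 on the log2 scale (SE 0.08, limma adjusted p = 0.0256). The fall did not pass after quantile normalization (limma adjusted p = 0.082) or cyclic loess (0.0744). It also did not pass without shp63 ON replicate 2 (0.123, log2 fold change −0.19), control replicate 1 (0.0976) or control replicate 2 (0.108). Between shp63 ON and Nutlin-3 the log2 fold change was −1.24 (SE 0.08, limma adjusted p = 3.06e-05), beside −1.48 for XPC and −0.98 for DDB2.

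The count of 5 called genes in shp63 ON against control thus rested on small differences. It was 2 without control replicate 1, 2 without control replicate 2, 3 without shp63 ON replicate 2 and 4 without shp63 ON replicate 1 or either Nutlin-3 array. Without shp63 ON replicate 2 the 3 were POLH, GADD45B and GADD45G, which was newly called higher, so 2 of the original 5 passed. POLH and GADD45B passed in each of those 6 fits. The Nutlin-3 count of 5 was 4 without either control array and 5 without any 1 of the other arrays. Without Nutlin-3 replicate 1 the 5 held GADD45B, as lower, in place of GADD45A. Only the shp63 ON cells received doxycycline, and their exposure outlasted that of the Nutlin-3 cells. The drug, its duration and the knockdown cannot be told apart in these arrays.

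**Figure D3:**
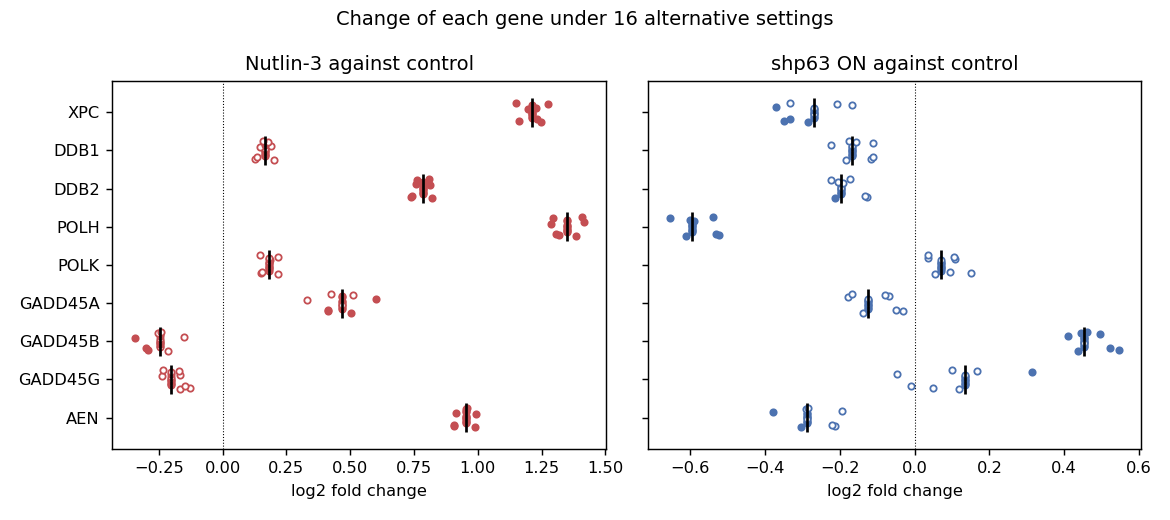
Log2 fold change (x axis) of each gene against control under the main setting (black bar) and under 16 alternative settings (points, filled where the adjusted p was under 0.05), for Nutlin-3 and for shp63 ON. The x axes differ in range. POLH keeps filled points in both comparisons, while XPC, DDB2 and AEN hold open points in shp63 ON.

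Other genes of these pathways were counted in 6 lists, to be read against the shares of all genes. Those were 9.64% higher and 8.89% lower with Nutlin-3 (median log2 fold change −0.002), and 19.7% higher and 16.5% lower in shp63 ON (0.042). Of 26 measured partners of nucleotide excision repair, 1 rose and 2 fell, with a median log2 fold change of 0.01. The gene that rose was ERCC4, a subunit of the nuclease that cuts on the 5′ side (0.25, SE 0.07), whose call was lost without any 1 Nutlin-3 or control array (limma adjusted p from 0.115 to 0.178). The genes that fell were RPA1, of the single-stranded DNA binding protein (−0.42, SE 0.08), and the ubiquitin ligase scaffold CUL4B (−0.29, SE 0.06). RPA1 lost its call without control replicate 1 (limma adjusted p = 0.0747), and CUL4B did not pass without any 1 Nutlin-3 or control array (0.0579 to 0.115). In shp63 ON, 2 of the 26 rose and 12 fell, with a median of −0.18. Named here after their values were seen, the 2 were CDK7, the kinase of TFIIH (0.41, SE 0.07), and UVSSA (0.20, SE 0.06), which did not pass without any 1 shp63 ON or control array (limma adjusted p from 0.096 to 0.171) or after cyclic loess (0.399, log2 fold change 0.08). The TFIIH subunits GTF2H3 (−0.70, SE 0.08) and GTF2H1 (−0.44, SE 0.07) fell, as did RPA2 (−0.52, SE 0.12) and RPA1 (−0.49, SE 0.08). RPA2 did not pass without shp63 ON replicate 2 (limma adjusted p = 0.0539, log2 fold change −0.32), control replicate 1 (0.0502) or control replicate 2 (0.0951).

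Of 14 genes of translesion synthesis and damage tolerance beside POLH and POLK, 0 rose and 3 fell with Nutlin-3 in limma, with a median log2 fold change of −0.03. At an unadjusted p under 0.05, 2 of the 14 were higher, and in the analysis of variance 0. The genes that fell were USP1, which removes ubiquitin from PCNA (−1.01, SE 0.06), the end-joining polymerase POLQ (−0.79, SE 0.07) and RAD18, the ligase that marks PCNA for bypass (−0.57, SE 0.08). In shp63 ON 0 rose in limma, at an unadjusted p under 0.05 or in the analysis of variance, and 7 fell in limma, with a median of −0.25. USP1 (−1.01, SE 0.06), POLQ (−0.95, SE 0.07) and RAD18 (−0.46, SE 0.08) fell again. The helicase-like factor HLTF (−0.75, SE 0.08) and the repriming enzyme PRIMPOL (−0.50, SE 0.09) fell there too. POLH was thus the single gene among 16 of this group, itself and POLK included, that rose with Nutlin-3 by limma.

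In base excision repair, 2 of 17 genes rose and 6 fell with Nutlin-3, and 2 rose and 7 fell in shp63 ON, with medians of −0.17 and −0.14. The uracil glycosylase UNG fell in both (−1.16 and −1.21, SE 0.06 each), as did the glycosylase NEIL3 (−0.67 and −1.32, SE 0.09 each). PARP2, a sensor of strand breaks, also fell in both (−0.49 and −0.42, SE 0.07 each). With Nutlin-3 the glycosylases MBD4 (−0.33, SE 0.06) and MPG (−0.26, SE 0.07, limma adjusted p = 0.0316) fell too. The gap-filling polymerase POLB rose with Nutlin-3 (0.34, SE 0.08). The other gene that rose with Nutlin-3 was APTX, an end-processing enzyme (0.31, SE 0.09). APTX did not pass without Nutlin-3 replicate 2 (limma adjusted p = 0.181, log2 fold change 0.22), either control array (0.145 and 0.188) or either shp63 ON array (0.0521 each). POLB did not pass without Nutlin-3 replicate 2 (limma adjusted p = 0.113, log2 fold change 0.22), either control array (0.157 and 0.115) or either shp63 ON array (0.0544 each). In shp63 ON the glycosylase MBD4 (−0.62, SE 0.06) and PARP1 (−0.51, SE 0.10) fell, and PARP1 lost its call without control replicate 2 (limma adjusted p = 0.0509). The 2 genes that rose there were the glycosylases MUTYH (0.36, SE 0.07) and MPG (0.26, SE 0.07). Without control replicate 2 neither passed (limma adjusted p = 0.0534 and 0.124), and MPG did not pass without either shp63 ON array (0.0827 and 0.063). APTX, MUTYH and MPG were named after their values were seen.

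Of 6 measured mismatch repair genes, 0 rose and 2 fell with Nutlin-3, the exonuclease EXO1 (−2.28, SE 0.16) and the recognition subunit MSH6 (−1.03, SE 0.06). In shp63 ON 0 rose and 4 fell: EXO1 (−1.87, SE 0.16), MSH6 (−1.07, SE 0.06), PMS1 (−0.65, SE 0.06) and PMS2 (−0.60, SE 0.07). The list medians were 0.02 and −0.62. The counts of 0 held at an unadjusted p under 0.05 and in the analysis of variance. Of 8 end-joining genes, 1 fell with Nutlin-3, the accessory factor PAXX (−0.28, SE 0.07), and 0 rose, with a median of −0.05. PAXX did not pass without any 1 Nutlin-3 or control array (limma adjusted p from 0.0965 to 0.16). In shp63 ON 4 of the 8 fell and 0 rose, with a median of −0.19. In both comparisons 0 were higher at an unadjusted p under 0.05 in limma and in the analysis of variance. The 4 that fell in shp63 ON were the kinase PRKDC (−0.63, SE 0.06), XRCC4 (−0.52, SE 0.09), NHEJ1 (−0.42, SE 0.09) and the Ku subunit XRCC6 (−0.21, SE 0.07). NHEJ1 lost its call without control replicate 2 (limma adjusted p = 0.063), and XRCC6 did not pass without any 1 of the 6 arrays (0.0562 to 0.197).

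Of 8 measured genes of the MAP3K4 and p38 kinase branch, which GADD45 proteins act on, 2 rose and 0 fell with Nutlin-3, with a median log2 fold change of 0.11. They were the p38 delta kinase MAPK13 (0.44, SE 0.07) and the p38 activator MAP2K3 (0.25, SE 0.07), and MAP2K3 did not pass without any 1 of the 6 arrays (limma adjusted p from 0.0501 to 0.231). In shp63 ON 0 rose and 3 fell, with a median of −0.06. Both counts of 0 were also 0 at an unadjusted p under 0.05 and in the analysis of variance. MAP3K4 fell (−0.38, SE 0.06), as did MAPK12 (−0.33, SE 0.11) and MAPK13 (−0.21, SE 0.07). MAPK13 did not pass without any 1 shp63 ON or control array (limma adjusted p from 0.0787 to 0.199) or after quantile normalization (0.141, log2 fold change −0.13). MAPK12 did not pass without shp63 ON replicate 1 (0.23, log2 fold change −0.17), control replicate 1 (0.116), control replicate 2 (0.194) or either Nutlin-3 array (0.0516 each).

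**Figure D4:**
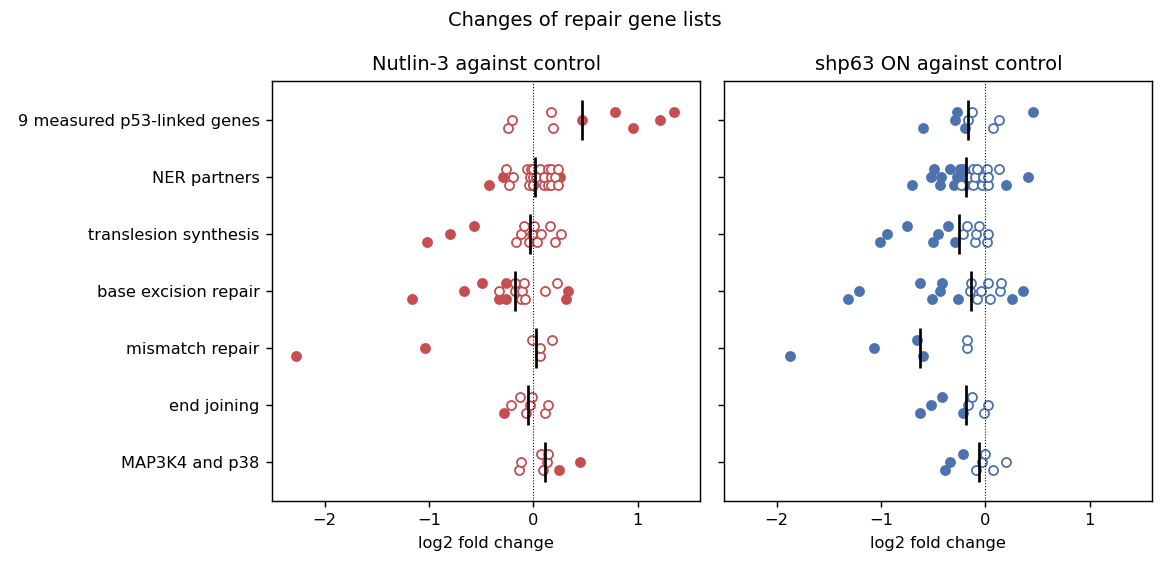
Log2 fold change (x axis) of each gene in the 9 measured p53-linked genes and in 6 lists of other repair and kinase genes, for Nutlin-3 and for shp63 ON against control. Filled points passed an adjusted p of 0.05, and vertical bars are list medians. The 9 have a median of 0.47 with Nutlin-3, while the medians of the other lists lie between −0.17 and 0.11. In shp63 ON the median of the 9, −0.17, lies among those of the other lists, −0.62 to −0.06.

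The pattern of POLH over the 6 arrays, the gene with the largest change of the 9 in both comparisons with control, was most like that of BTBD10, NOTCH1, MTO1, LAMB3 and ZNF219. Likeness was Pearson's r over the 6 arrays, 0.999 to 1.00 for these 5, among 2548 genes with an SD over the arrays of at least 0.3. The 6 points fall into 3 treatment groups, so r mainly describes the order and spacing of the groups. With Nutlin-3 these 5 genes had log2 fold changes of 0.56 (MTO1) to 0.84 (NOTCH1), and in shp63 ON of −0.38 (BTBD10) to −0.24 (MTO1).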

How the data were processed

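RNA of H226 cells was measured on HuGene 1.0 ST arrays, according to the design text. The deposited values are the authors' log2 intensities per probe set. That they are log2 follows from their range (2.94 to 14.88, array medians 6.57 to 6.70). The submitters' processing notes name Partek. For its version, the background correction, the normalization and the probe summary, the entry is: not given in the sources used here. The number of arrays limits the precision.

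Of 32321 probe sets, 19158 name 1 gene in the platform annotation, 1388 several and 11775 none. For 637 genes with several probe sets, the one highest on average over the 6 arrays was used, giving 18404 genes. Symbols were checked by Entrez identifier, and 0 changed. Group means were fitted on the 6 arrays together (limma 3.58.1, R 4.3.3, lmFit and eBayes), with no covariates and 3 residual degrees of freedom. Calls are Benjamini-Hochberg adjusted p-values under 0.05 over all 18404 genes. The fit was tested on simulated data. Alternatives were other normalizations, filters, variance models and probe set rules, the study's analysis of variance, a replicate block, and leaving out each array. The members and lists were chosen with earlier results of these data known. Named genes are the members, MDM2, CDKN1A, up to 4 called genes with the largest change per list and comparison with control, and the 5 genes with the pattern most like the member that changed most. CDK7, UVSSA, MUTYH, MPG and APTX were named after their values were seen. Promoter sequences are from RefSeq.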

Additional observations from a re-analysis of the deposited data

Results flagged for a closer look

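The probe set that names both BIVM-ERCC5 and ERCC5 lies outside the comparisons above, and its signal was higher with Nutlin-3 than in control. It had 8.43 and 8.56 with Nutlin-3, 7.95 and 7.97 in shp63 ON and 8.16 and 7.97 in control. In limma over 20546 probe sets that name at least 1 gene, its log2 fold change was 0.43 with Nutlin-3 (SE 0.08, adjusted p = 0.0171) and −0.10 in shp63 ON (SE 0.08, adjusted p = 0.387). ERCC5 and the readthrough transcript BIVM-ERCC5 cannot be told apart by this probe set.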

How the results depend on the processing

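The 16 alternatives overlap in part, as leaving out an array of the group not compared repeats the fit on the compared arrays. With Nutlin-3 against control, 6 of the 9 genes kept their direction and their status, called or not called, in all 16 alternatives. Among them POLK and GADD45G were not called, and 0 of the 9 turned direction. In shp63 ON against control 3 of the 9 kept direction and status, POLH as called and POLK and GADD45A as not called. Between shp63 ON and Nutlin-3, 6 of the 9 did so, all as called. GADD45G in shp63 ON against control turned to −0.011 with cyclic loess and −0.046 without shp63 ON replicate 1 (0.31 without shp63 ON replicate 2), and POLK between shp63 ON and Nutlin-3 turned to 0.0004 with quantile normalization. These turned values were not called. The number of members called in shp63 ON against control, 5, was 3 with quantile normalization, 3 with cyclic loess and 2 in the unmoderated analysis of variance, and 2 to 4 when 1 array was left out, counting GADD45G, newly called, among the 3 without shp63 ON replicate 2. The analysis of variance called 1236 genes with Nutlin-3 in place of 3410, 3003 in shp63 ON against control in place of 6670 and 6089 between shp63 ON and Nutlin-3 in place of 9481 (Benjamini-Hochberg). At an unadjusted p under 0.05 it called 4987, 6885 and 8904. It ended the calls of GADD45A (adjusted p = 0.149) and MDM2 (0.0721) with Nutlin-3 and of MDM2 (0.229), XPC (0.165), AEN (0.117) and GADD45B (0.065) in shp63 ON. It also ended, between shp63 ON and Nutlin-3, the calls of GADD45A (0.0522) and GADD45G (0.187). Its log2 fold changes were the same as in the main fit. Only the estimate of each gene's spread and its degrees of freedom differed. Without 1 array, 1405 to 2991 genes were called with Nutlin-3, 3454 to 6960 in shp63 ON against control and 7356 to 8918 between shp63 ON and Nutlin-3, with fewer arrays in each fit. The labels do not say whether same-numbered replicates were handled together. Their deviations correlated at −0.062 (Nutlin-3 and control), −0.016 (shp63 ON and control) and 0.107 (shp63 ON and Nutlin-3). These values cannot decide it, as each group has only 2 arrays. With the replicate block, 3097, 6530 and 9405 genes and 5, 4 and 8 members were called.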
